A study of Homo sapiens with 8 samples.

Results

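The endoplasmic reticulum stress genes described here are 10 genes: HSPA5, HSP90B1, DNAJB9, DNAJC3, HERPUD1, XBP1, SDF2L1, PDIA4, CALR and EDEM1. They were taken by name, and a probe set (a group of short probes for 1 transcript) was counted as theirs where the platform annotation gives it exactly 1 of these symbols. This found 22 probe sets for all 10 genes, of 54675 probe sets and 19775 named genes on the array. The study measured total RNA of HepG2, a human hepatocellular carcinoma line, on 8 Affymetrix 3' expression arrays. The 4 control groups were cells in serum-free medium for 2, 4, 12 or 24 h, and the 4 treated groups received 3 µM quercetin, a plant flavonol, for the same times. All 8 groups had been starved of serum beforehand, so the controls carry that treatment too, and each group is 1 array. The labels do not say whether the arrays came from separate cultures, so p-values measure the spread between these arrays, which may be technical. HepG2 is a single tumour line, which limits it as a model of hepatocytes.

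The endoplasmic reticulum folds secreted and membrane proteins with chaperones and disulfide-forming enzymes, and a hepatocyte, which secretes most plasma proteins, depends heavily on it. When unfolded proteins build up, the sensors IRE1, PERK and ATF6 start the unfolded protein response, which raises chaperones, parts of the degradation machinery and the transcription factor XBP1. ATF6 and XBP1 act with the factor NF-Y through promoter elements that join the letters CCAAT to CCACG.

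The sequences below show which members carry that element in the promoter, since the same members are followed by their RNA afterwards. Promoters were 300-base windows of RefSeq on GRCh38.p14, 250 bases before to 50 bases after a gene's start, and all 10 members were matched. The stress element ERSE was searched as CCAAT, 9 bases of any kind and CCACG, and its second form, ERSE-II, as ATTGG, 1 base of any kind and CCACG, on both strands. Capitals mark the match, and each sequence reads along the gene's own strand with 15 bases on either side.
HSPA5: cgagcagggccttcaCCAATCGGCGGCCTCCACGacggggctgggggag
HSP90B1, first match: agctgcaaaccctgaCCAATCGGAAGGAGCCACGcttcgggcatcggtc
HSP90B1, second match: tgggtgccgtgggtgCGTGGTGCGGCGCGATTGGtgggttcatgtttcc
XBP1: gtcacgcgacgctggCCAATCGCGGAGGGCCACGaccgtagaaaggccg
CALR: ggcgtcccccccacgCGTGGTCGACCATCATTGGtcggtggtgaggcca
HERPUD1: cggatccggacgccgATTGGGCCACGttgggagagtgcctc
SDF2L1: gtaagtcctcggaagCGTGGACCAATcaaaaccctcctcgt

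The HSPA5 sequence lies at chr9:125241376-125241424 on the minus strand, with the match 66 to 48 bases before the start. Those of HSP90B1 lie on the plus strand at chr12:103930201-103930249 and chr12:103930306-103930354, with the second match on the strand opposite to the gene. The XBP1 sequence is at chr22:28800588-28800636, minus strand, 52 to 34 bases before the start. The CALR sequence is at chr19:12938369-12938417, plus strand, with an opposite-strand match. HERPUD1 and SDF2L1 carry ERSE-II, at chr16:56932010-56932050 and chr22:21642099-21642139 on the plus strand, the latter match on the opposite strand. Exact ERSE was found before the start in 4 of 10 members and in 0.074% of 35116 promoter windows, and exact ERSE-II in 2 of 10 members and 0.0513% of windows. With 1 of the 10 fixed letters allowed to differ, ERSE was found in 7 of 10 members and 1.36% of windows. CCAAT alone was in all 10 members and in 32.01% of windows. The letters TGACGTGG, an XBP1 element, and TGATGNAAT, an amino acid response element, were in 0 of 10 members, against 0.612% and 0.889% of all windows. The 10 members have 12 windows, and a member was counted where any of its windows matched, while the shares are per window. The members were named as stress genes beforehand, so these counts are descriptive and no test was run on them. A match describes the letters and does not show that a factor binds there.

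The deposited values are log2 expression values, so a difference of 1 is a doubling, and a probe set's level cannot be set against that of another. Array medians lay between 7.36 and 7.48, and pairs of arrays correlated at 0.964 to 0.992 over probe sets. The spread (SD) of array values was widest in the 24 h arrays, 1.94 for control and 1.90 for quercetin. Other arrays had an SD of 1.74 to 1.86, with the lowest in the 4 h quercetin array. Probes for 18S ribosomal RNA ranged from 7.29 to 12.01, with the lowest values in the 12 h arrays and the highest in the 2 h quercetin array. The 3' minus 5' difference of ACTB probes, a sign of RNA length, ranged from 0.88 to 1.4. All 9 hepatocyte markers measured were above the filter level of 7.43, with mean levels from 11.46 to 15.09. Above it were also 3 of 4 leukocyte, 1 of 4 endothelial and 4 of 5 fibroblast markers, with highest means of 13.99 (LYZ), 8.78 and 9.23. The mean log2 level of each list ranged over the arrays from 14.07 to 14.35 for hepatocyte, 8.88 to 9.31 for leukocyte, 6.90 to 7.28 for endothelial and 8.12 to 8.44 for fibroblast markers. Their part in the results, and that of the control probes, was not tested. In bulk RNA, fewer cells and less RNA per cell cannot be told apart.

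What 3 µM quercetin did to these genes was asked first, over the 4 times together. None of the 10 members passed the test, and their median difference was -0.04 on the log2 scale against -0.03 for all 13298 genes tested. The fit (limma with time and treatment as terms, threshold 0.05 after Benjamini-Hochberg adjustment) called 0 genes, or 0.0%, while 785 genes had an unadjusted p under 0.05. Of the members, 2 were among those 785, HERPUD1 and CALR. By eBayes without trend, 0 members had an unadjusted p under 0.05 in limma. The fit drew each gene's spread mostly from the trend over all genes (21.08 total against 3 residual degrees of freedom). Its SEs, intervals and p-values, for quercetin and for time, therefore do not measure the spread of the single gene alone. All 22 member probe sets lay above the filter level, so no member was lost as dim. The probe set with the highest mean stood for each gene.

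**Figure D1:**
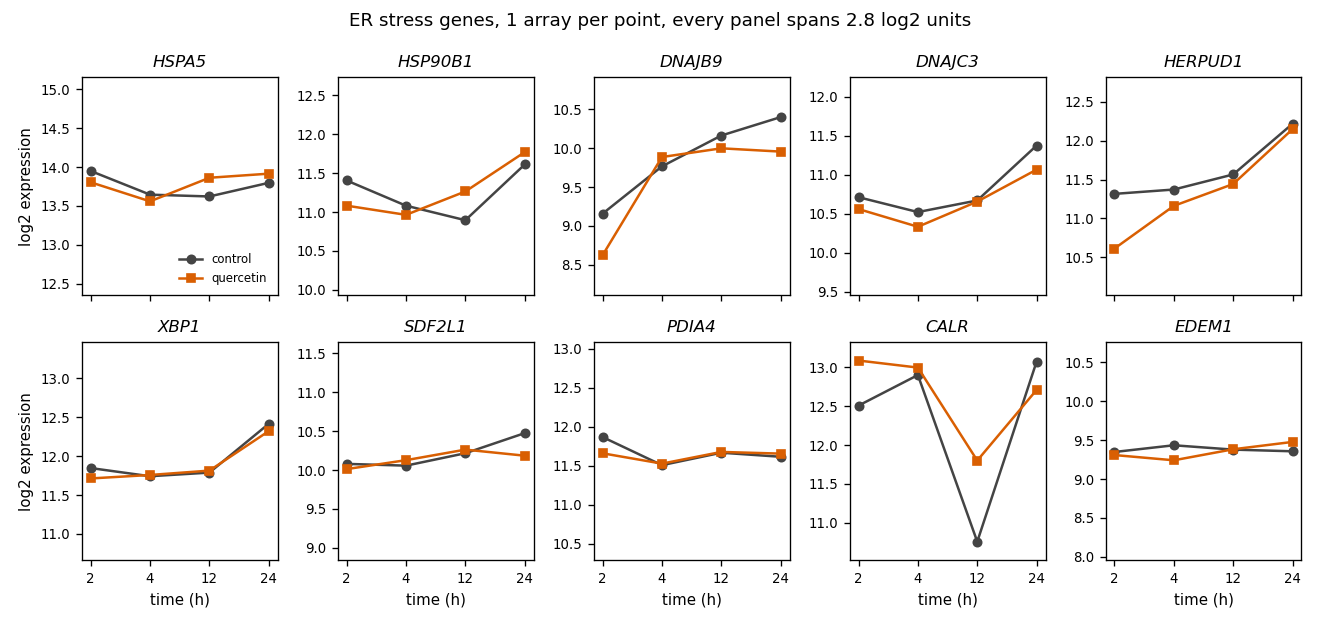
Log2 expression (vertical axis) of the 10 members by time in hours (horizontal axis), with 1 point per array and control and quercetin joined separately. DNAJB9 and HERPUD1 were higher at 24 h than at 2 h in both treatments, while HSPA5 stayed between 13.56 and 13.95.

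Neither of the 2 main chaperones of the compartment passed the test for quercetin. HSPA5 encodes BiP, the abundant HSP70-type chaperone that also holds the stress sensors inactive. Its log2 levels in the controls were 13.95, 13.65, 13.62 and 13.80 at 2, 4, 12 and 24 h, and with quercetin 13.80, 13.56, 13.86 and 13.91. The control arrays and the quercetin arrays overlapped, and the mean quercetin difference was 0.03 ± 0.07 (SE, 95% interval -0.12 to 0.18, adjusted p = 0.950). HSP90B1 encodes GRP94, the HSP90-type chaperone. Its levels were 11.41, 11.08, 10.90 and 11.61 in the controls and 11.08, 10.96, 11.26 and 11.77 with quercetin. They were read from 216449_x_at, and the other single-symbol probe set of HSP90B1 is also named x_at. That suffix marks probes that may also match other transcripts. The array lowest was the 12 h control and the highest the 24 h quercetin array, and the mean difference was 0.02 ± 0.11 (interval -0.22 to 0.26, adjusted p = 0.982).

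CALR encodes calreticulin, a lectin chaperone that binds calcium and glycoproteins. Its log2 levels were 12.51, 12.90, 10.76 and 13.07 in the controls and 13.09, 13.00, 11.80 and 12.71 with quercetin. Both 12 h arrays were the lowest of their treatment. In time order, quercetin minus control was 0.58, 0.10, 1.04 and -0.36. The mean was 0.34 ± 0.14 (SE, interval 0.05 to 0.63, adjusted p = 0.844), and it was 0.10 without the 12 h pair. Both probe sets named x_at, a suffix for probes that may also match other transcripts, had these signs, but the third, 200935_at, gave -0.998, 0.55, 1.76 and -0.05. PDIA4 is a disulfide isomerase. Its representative probe set stayed between 11.51 and 11.87 on all 8 arrays, with a mean quercetin difference of -0.03 ± 0.10 (interval -0.23 to 0.17, adjusted p = 0.956).

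**Figure D2:**
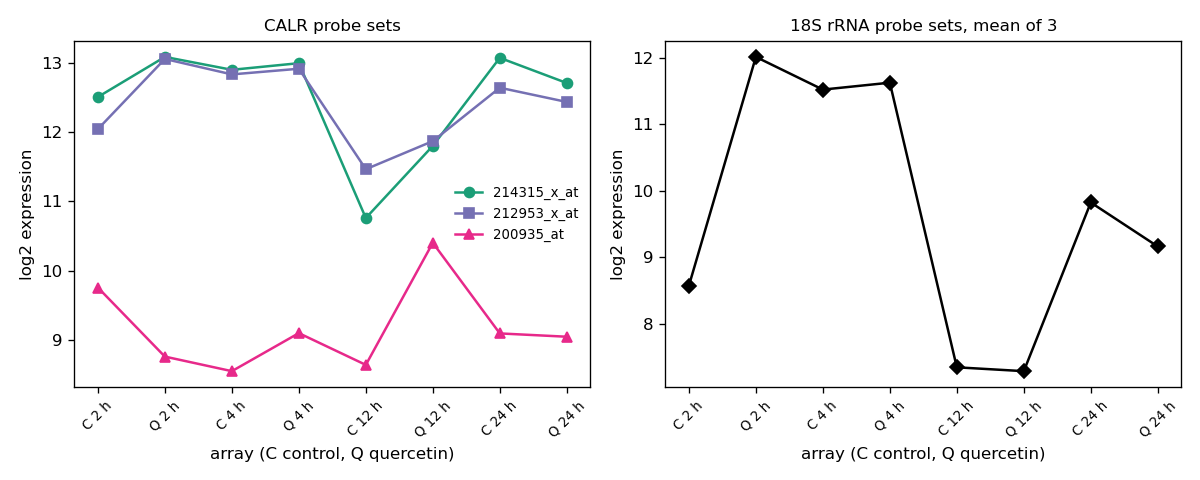
Log2 expression of the 3 CALR probe sets (vertical axis) by time in hours (horizontal axis), 1 point per array, control and quercetin apart. At 12 h both x_at probe sets are at their lowest in either treatment, while 200935_at is at its highest, 10.40, in the quercetin array.

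The J-domain proteins DNAJB9 and DNAJC3 work with BiP, and SDF2L1 is a partner of its J-domain cofactors. DNAJB9 had log2 levels of 9.16, 9.77, 10.16 and 10.40 in the controls and 8.62, 9.89, 9.998 and 9.96 with quercetin. The 2 h quercetin array was the lowest of the 8 for all 3 DNAJB9 probe sets. DNAJC3 was at 10.71, 10.52, 10.67 and 11.38 in the controls and 10.56, 10.33, 10.66 and 11.07 with quercetin. SDF2L1 was at 10.08, 10.06, 10.22 and 10.47 and at 10.01, 10.13, 10.26 and 10.18. The highest array of each of these 3 genes was the 24 h control. Mean quercetin differences were -0.26 ± 0.13 for DNAJB9 (interval -0.53 to 0.02, adjusted p = 0.848), -0.17 ± 0.11 for DNAJC3 (interval -0.39 to 0.06, adjusted p = 0.867) and -0.06 ± 0.12 for SDF2L1 (interval -0.31 to 0.19, adjusted p = 0.946).

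HERPUD1 and EDEM1 serve the degradation of misfolded proteins, the first in the membrane ligase complex and the second in recognising glycoproteins. HERPUD1 had log2 levels of 11.32, 11.37, 11.57 and 12.22 in the controls and 10.61, 11.16, 11.44 and 12.15 with quercetin. Its second probe set, 1569380_a_at, was 0.13 higher with quercetin at 12 h and 0.38 lower at 24 h. In the representative probe set quercetin was the lower array at every time. It was lower by 0.70 at 2 h, and the differences were -0.21, -0.12 and -0.07 at 4, 12 and 24 h. The mean was -0.28 ± 0.11 (SE, interval -0.51 to -0.05, adjusted p = 0.844), and it was -0.13 without the 2 h pair. EDEM1 stayed between 9.24 and 9.48 on all arrays, with a mean quercetin difference of -0.03 ± 0.13 (interval -0.29 to 0.24, adjusted p = 0.980). XBP1, the transcription factor that IRE1 activates by splicing its mRNA, was at 11.85, 11.74, 11.79 and 12.42 in the controls and 11.71, 11.76, 11.81 and 12.32 with quercetin. These 3'-end probe sets were not used to tell spliced from unspliced XBP1. Its mean quercetin difference was -0.05 ± 0.09 (interval -0.24 to 0.14, adjusted p = 0.946).

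At single times, where 1 array is compared with 1 array and no test is possible, the members' median quercetin differences, from 2 to 24 h, were -0.15, -0.03, 0.02 and -0.08. The medians of all genes tested were -0.06, -0.02, 0.05 and -0.10. Values and counts here are for the representative probe sets unless another is named. At 2 h, HERPUD1 and DNAJB9 were at least 0.5 lower with quercetin (8.89% of genes were) and CALR at least 0.5 higher (4.81%). No member reached 1 in its representative probe set, where 0.353% of genes were lower and 0.12% higher. Among other probe sets at 2 h, 216450_x_at of HSP90B1 (1.05) and 212953_x_at of CALR were over 1 higher. The CALR probe sets split in sign, since 200935_at gave -0.998, and 202843_at of DNAJB9 gave -0.95. At 12 h CALR was again higher by over 0.5 (4.19%) and by over 1 (0.323%), with no member lower (1.2% and 0.0226%). At 4 and 24 h no member was past 0.5 in either direction. Of all genes, 1.5% and 3.19% were higher and 1.45% and 5.46% lower at these times. Some other probe sets were past 0.5 at 4 h, such as 202843_at of DNAJB9 (0.80) and 208499_s_at of DNAJC3 (-0.65). Both HERPUD1 and DNAJC3 were lower with quercetin at all 4 times, 2 of 10 members against 9.28% of genes, and 0 of 10 members were higher at all 4, against 4.54%. For both genes being lower at all 4 times held only in the representative probe set. For HERPUD1, 1569380_a_at was 0.13 higher with quercetin at 12 h. For DNAJC3, 1558080_s_at was 0.86 and 0.54 higher at 12 and 24 h, and the mean over its probe sets gave a mean difference of 0.01. CALR had the largest difference of the members at 12 h, and no other representative probe set moved by as much as 0.5 there. Among other probe sets, 1558080_s_at of DNAJC3 (0.86) and 202843_at of DNAJB9 (-0.54) did.

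**Figure D3:**
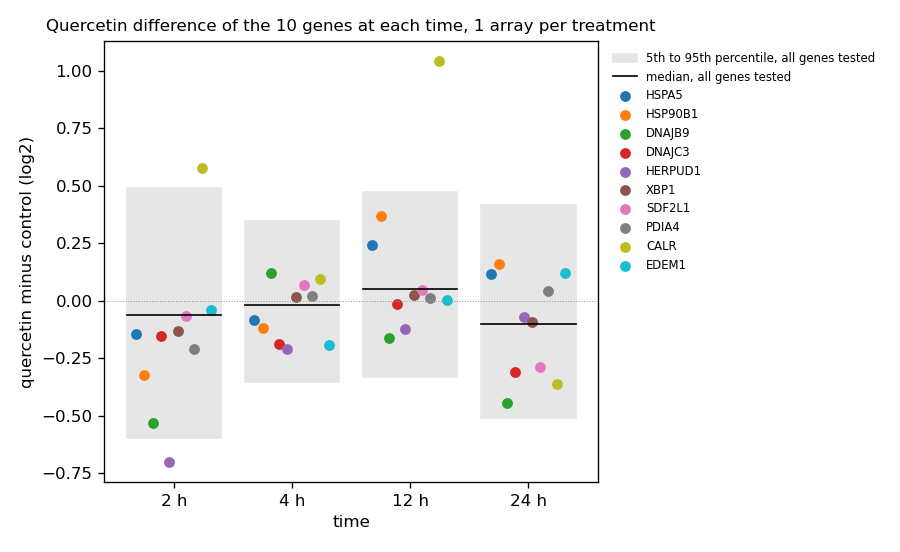
Quercetin minus control on the log2 scale (vertical axis) for each member at 2, 4, 12 and 24 h (horizontal axis), 1 array against 1 array, with the range from the 5th to the 95th percentile of all 13298 genes behind. HERPUD1 at 2 h (-0.70) and CALR at 2 and 12 h (0.58 and 1.04) lie outside that range.

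A second limma fit compared the quercetin difference of the late times (12 and 24 h) with that of the early ones (2 and 4 h). In this fit limma took each gene's spread from the trend over all genes (26596 total degrees of freedom), not from that gene's own arrays. Its p-values and SEs therefore do not measure the spread of the single gene. The fit called 49 genes, or 0.368% (0.278% higher and 0.0902% lower late), and 0 of 10 members. At an unadjusted p under 0.05 the counts were 574 genes and 2 members. HSPA5 went from a mean quercetin difference of -0.12 at the early times to 0.18 at the late ones, a change of 0.29 ± 0.13 (SE, adjusted p = 0.978). HSP90B1 went from -0.22 to 0.26, a change of 0.48 ± 0.23 (adjusted p = 0.9999). In both genes the sign depended on the probe set, since the mean over all probe sets of a gene changed by -0.06 for HSPA5 and by -0.05 for HSP90B1.

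Time in culture gave calls where quercetin gave none. From 2 to 24 h, 4 of 10 members rose and none fell: DNAJB9, HERPUD1, XBP1 and DNAJC3. Of all genes tested 21.3% were called, 17.3% higher and 3.98% lower at 24 h. The members' median difference was 0.37 on the log2 scale against 0.09 for all genes. All 10 members also passed a stricter filter at the 75th percentile of probe set means. Among the 8095 genes above it the median was 0.19, so brighter genes lay higher at 24 h. Of those genes 2074 were called higher and 315 lower, and of the members 5 higher and 0 lower. The comparisons of 4, 12 and 24 h all use the same pair of 2 h arrays. The 3' minus 5' difference of ACTB probes was 1.36 and 1.39 in the 24 h control and quercetin arrays against 0.88 and 1.11 at 2 h, while that of GAPDH was 0.41 and 0.42 against 0.47 and 0.56. The 24 h arrays also had the widest spread of values. What part this spread and the ACTB and GAPDH readings had in the 24 h differences was not tested.

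DNAJB9 was 1.29 ± 0.19 higher at 24 h on the log2 scale, or 2.44-fold (SE, interval 0.90 to 1.68, adjusted p = 7.00e-05), and was the only member also higher at 4 h. Its rise was 1.24 in the controls and 1.33 with quercetin. HERPUD1 was 1.22 ± 0.16 higher, or 2.33-fold (interval 0.89 to 1.54, adjusted p = 1.78e-05), by 0.90 in the controls and 1.53 with quercetin. Both genes had their 24 h arrays above their 2 h arrays in either treatment, and both passed in all 19 alternatives run for this contrast, though with the mean over its probe sets HERPUD1 was 0.57 higher (adjusted p = 0.0284). XBP1 was 0.59 ± 0.13 higher (1.5-fold, adjusted p = 0.00251) and DNAJC3 0.59 ± 0.15 higher (1.5-fold, adjusted p = 0.00954). XBP1 lay between 11.71 and 11.85 from 2 to 12 h and above both at 24 h in either treatment. XBP1 was not called without the 24 h control array (0.56, adjusted p = 0.0669), and DNAJC3 neither without it (0.49, adjusted p = 0.169) nor without the 2 h quercetin array (adjusted p = 0.0606). With the mean over its probe sets neither XBP1 (0.11, adjusted p = 0.683) nor DNAJC3 (0.36, adjusted p = 0.185) was called.

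None of the other 6 members passed the test for 24 h. HSPA5 differed by -0.02 between 24 and 2 h (interval -0.24 to 0.19, adjusted p = 0.912), an interval that lies below the interval of DNAJB9. PDIA4 differed by -0.13 (adjusted p = 0.548), CALR by 0.09 (adjusted p = 0.782) and EDEM1 by 0.09 (adjusted p = 0.773). SDF2L1 had a difference of 0.28 (adjusted p = 0.249), 0.40 in the controls and 0.17 with quercetin. HSP90B1 missed the threshold at 0.45 ± 0.16 (adjusted p = 0.0538), and without the 2 h control array it was 0.68 (adjusted p = 0.0141); it passed in 6 of 19 alternatives. Within the controls 5 of 10 members were at least 0.5 higher at 24 h than at 2 h, where 17.0% of genes were, and within the quercetin arrays 5 of 10, where 19.6% were. None was at least 0.5 lower (5.35% and 9.29% of genes were). At least 1 higher were DNAJB9 in the controls (2.71% of genes), and DNAJB9 and HERPUD1 with quercetin (4.8%), and none was at least 1 lower (0.752% and 0.692%). CALR was among the 5 in the controls (0.57) but lower with quercetin (-0.38), and HSP90B1 was among the 5 with quercetin (0.69) but at 0.21 in the controls.

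The size of this rise depended on how the arrays were scaled. The share of called genes that were higher at 24 h was 81.3% as deposited, 87.7% after median centring, 60.1% after cyclic loess and 57.0% after quantile normalization. The median of all genes moved from 0.09 as deposited to 0.15, -0.02 and -0.03, and that of the members from 0.37 to 0.42, 0.14 and 0.10. DNAJB9 (1.09 and 1.06), HERPUD1 (0.98 and 0.93) and XBP1 (0.36 and 0.35) passed after both cyclic loess and quantile normalization, whereas DNAJC3 did not (0.35, adjusted p = 0.0579, and 0.30, adjusted p = 0.116). PDIA4 was called lower after both (-0.36, adjusted p = 0.0295, and -0.38, adjusted p = 0.0242).

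Probe sets of 1 gene did not always move together. Of the 8 members with more than 1 probe set, 4 had the same sign in all of them for 24 h minus 2 h. All 3 DNAJB9 probe sets were called higher when every probe set was fitted, 1554462_a_at by 0.83 (adjusted p = 0.0253) and 202843_at by 1.34 (adjusted p = 0.00734). The second probe sets of HERPUD1, 1569380_a_at, and XBP1, 242021_at, differed by -0.08 (adjusted p = 0.810) and -0.38 (adjusted p = 0.250). For PDIA4 the 2 probe sets disagreed: 208658_at was higher by 0.59 (adjusted p = 0.0227), at 10.23 to 10.41 on the arrays up to 12 h and at 11.17 and 10.82 at 24 h, while 211048_s_at was not. The 3 other DNAJC3 probe sets differed by 0.66, 0.11 and 0.09, the first with an adjusted p of 0.0959.

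**Figure D4:**
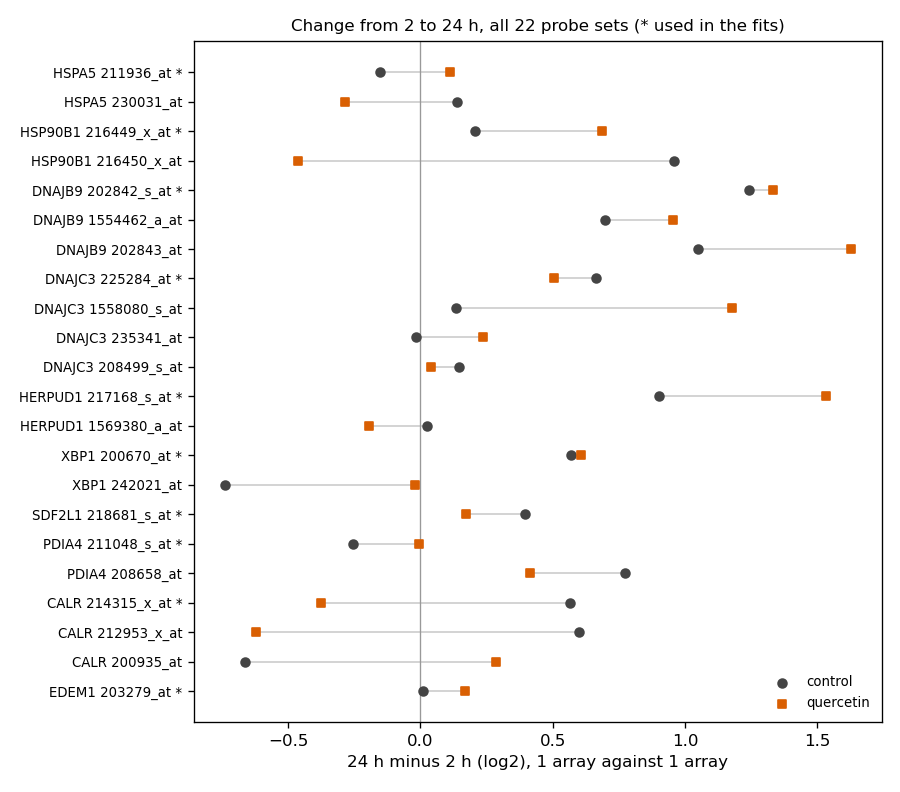
Difference of 24 h minus 2 h on the log2 scale (horizontal axis) for each of the 22 member probe sets (vertical axis), with control and quercetin arrays as separate points. All 3 DNAJB9 probe sets lie above 0 in both treatments, while probe sets of XBP1, HERPUD1 and PDIA4 fall on both sides of 0.

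Another 2 probe sets for HSP90B1 also carry the symbol MIR3652, a microRNA gene, and were left out by the rule on single symbols. They read 12.07, 11.84, 11.19 and 12.27 (200598_s_at) and 13.93, 13.61, 13.57 and 14.12 (200599_s_at) in the controls, and 11.87, 11.61, 11.93 and 12.34 and 13.72, 13.57, 13.63 and 14.08 with quercetin. The 24 h arrays were the highest in either treatment for both. The second single-symbol probe set of HSP90B1, 216450_x_at, was lowest in the 2 h control (8.04) and at 8.56 to 9.10 elsewhere, a 24 h minus 2 h difference of 0.25 (adjusted p = 0.566).

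At 12 h, 1 member was higher and 1 lower than at 2 h, where 3.0% of genes were called, 1.68% higher and 1.32% lower. DNAJB9 was 1.19 ± 0.19 higher (2.28-fold, adjusted p = 0.0012), though not without the 2 h quercetin array (1.003, adjusted p = 0.0518). CALR fell by 1.52 ± 0.20 on the log2 scale, to 0.35 of its 2 h level (adjusted p = 0.000254). When every probe set was fitted, CALR was lower in 214315_x_at (adjusted p = 0.00653) and 212953_x_at (-0.88, adjusted p = 0.0487) but not in 200935_at (0.26, adjusted p = 0.808), and it was not called with the mean over its probe sets (-0.71, adjusted p = 0.176) or by robust eBayes (adjusted p = 0.158). The 12 h arrays also had the lowest 18S readings, 7.35 and 7.29, and their part in this difference was not tested. HERPUD1 differed by 0.54 (adjusted p = 0.0669), and passed after cyclic loess (0.62, adjusted p = 0.02) and quantile normalization (0.61, adjusted p = 0.0142). Without the 2 h control array HERPUD1 was also called, at 0.82 (adjusted p = 0.00868). The called genes higher at 12 h made up 55.9% as deposited, 70.3% after median centring, 65.8% after cyclic loess and 68.6% after quantile normalization.

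At 4 h, DNAJB9 was the only member called, 0.93 ± 0.19 higher than at 2 h (1.91-fold, adjusted p = 0.0241), where 0.534% of genes were called, 0.0376% higher and 0.496% lower. It rested on single arrays: without the 2 h control, the 2 h quercetin, the 4 h control or the 4 h quercetin array the adjusted p was 0.0927, 0.0684, 0.0832 and 0.299. Of the genes called at 4 h, 5 of 71 were higher as deposited, 4 of 9 after cyclic loess and 9 of 22 after quantile normalization. In an F-test over all 4 times, 6 members differed with time (38.1% of all genes did): DNAJB9, HERPUD1, DNAJC3, XBP1, HSP90B1 and CALR. HSPA5, SDF2L1, PDIA4 and EDEM1 did not pass it.

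Other genes of the pathway were taken from 5 lists, chosen with earlier results of these data known. Their counts beside all genes are therefore descriptive. Quercetin minus control was called for 0 genes of each list. At 24 h, of 17 tested stress sensors and transcription factors, 7 were higher than at 2 h and 0 lower, with a list median of 0.38 beside 0.09 over all genes, of which 17.3% were higher and 3.98% lower. The largest differences were those of EIF2AK3 (1.35 ± 0.21, adjusted p = 0.000114) and PPP1R15B (1.26, adjusted p = 0.000301). EIF2AK3 encodes the sensor PERK, a kinase. PPP1R15B encodes a regulatory subunit of the phosphatase that removes the phosphate PERK adds to its substrate. ATF3, a stress-induced transcription factor, was 0.72 higher, but not called after cyclic loess or quantile normalization. The largest quercetin differences, ERN1 (the sensor IRE1, -0.31) and ATF3 (-0.28), did not pass. Of the 17 genes 2 were called higher with cyclic loess, where 10.9% of all genes were, and 3 with quantile normalization, where 8.84% were.

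Among 22 tested genes of degradation other than HERPUD1 and EDEM1, 9 were higher at 24 h and 0 lower, where 17.3% and 3.98% of all genes were, with a median of 0.26 beside 0.09 over all genes. STC2, a secreted glycoprotein placed in this list, had the largest difference, 1.67 ± 0.17 (adjusted p = 1.53e-06), and NGLY1, which removes glycans from proteins under degradation, was 0.91 higher. Both remained called after cyclic loess (STC2 1.47, NGLY1 0.70) and quantile normalization (STC2 1.41, NGLY1 0.62). The ubiquitin-conjugating enzyme UBE2J1 (-0.28) and the ligase RNF5 (-0.26) had the largest quercetin differences and did not pass. Of the 22 genes 8 were called higher with cyclic loess and 6 with quantile normalization (10.9% and 8.84% of all genes), and 1 lower with each (7.23% and 6.66%), with list medians of 0.06 and 0.02.

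Of 17 other chaperones and co-chaperones 1 was higher at 24 h, FKBP14, a prolyl isomerase (0.93, adjusted p = 0.00334), where 17.3% of all genes were, and the list median was 0.13. With quantile normalization 4 of the 17 were called lower (6.66% of all genes) and 3 with cyclic loess (7.23%), and the list median turned to -0.04 and -0.08. The largest quercetin differences there, in CLGN (-0.21) and HSPA13 (-0.19), did not pass. Of 12 other disulfide and oxidative folding enzymes 2 were higher (17.3% of all genes), the oxidase ERO1A (0.65, adjusted p = 0.00647) and its retention partner ERP44 (0.44), with ERP44 not called after either cyclic loess or quantile normalization and ERO1A not after the latter. The largest quercetin differences of that list were in QSOX1 (-0.26) and ERO1A (-0.22), and neither passed. Of 28 genes of translocation, glycosylation and export 6 were higher, a share near the 17.3% of all genes, with the largest differences in BET1 (0.88) and ARFGAP3 (0.79), both of vesicle transport, the second not called after quantile normalization (adjusted p = 0.0556). In that list 5 were called lower after cyclic loess and 4 after quantile normalization, none as deposited, and the list median of 0.13 turned to -0.08 and -0.04. The largest quercetin differences there were ARFGAP3 (-0.28) and SEC62 (-0.21), which did not pass.

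**Figure D5:**
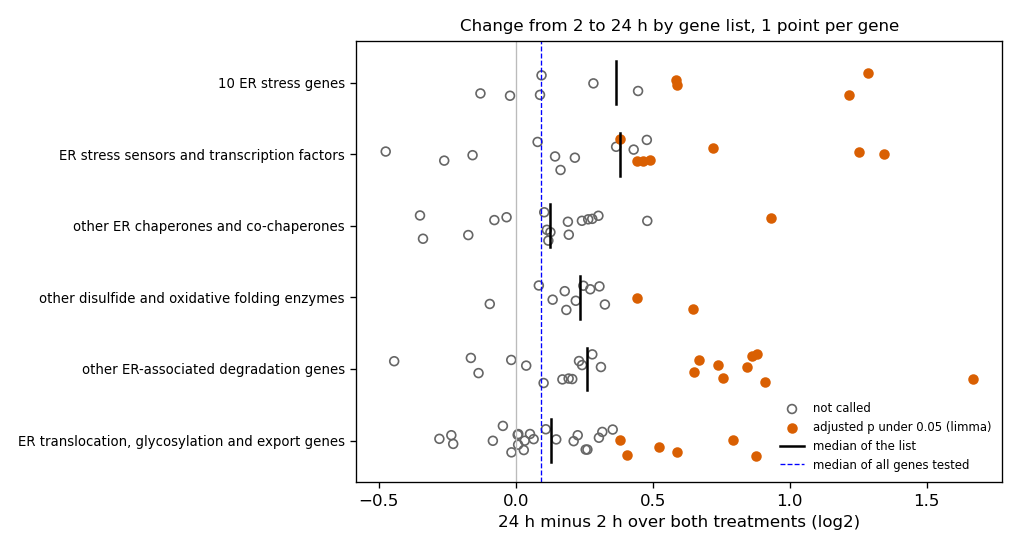
Difference of 24 h minus 2 h over both treatments on the log2 scale (horizontal axis) for the genes of each list and for the 10 members (vertical axis), with called and not called genes marked apart. EIF2AK3, PPP1R15B and STC2 exceed 1.2, as do DNAJB9 and HERPUD1 among the members.

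The genes whose 8-array profile lay nearest to that of HSPA5, by root mean square distance of centred log2 values, were TPI1 (0.033), DBI (0.034), COPS8 (0.045), GPI (0.046) and IDH1 (0.049). The HSPA5 profile itself spans 0.135 by the same measure. Nearest to the members' mean profile, which spans 0.196, were TEX10 (0.054), BRICD5 (0.057), ADSL (0.058), PNPT1 (0.062) and TRIP11 (0.063).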

How the data were processed

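The log2 values of the 8 arrays, deposited by the authors as a single table, were computed with RMA, per the submitters' processing notes, with version, settings and probe description not given in the sources used here. Probe sets were named from the platform annotation, with symbols updated through the Entrez identifier. Of 54675 probe sets, 62 were controls, 41091 had 1 symbol, 1801 several and 11721 were unlisted. The probe set with the highest mean stood for each gene. Tests ran on 13298 genes with a mean above 7.43, the median over all probe sets, and left out 6477 as dim.

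Genes were fitted with limma 3.58.1 in R 4.3.3 (lmFit, eBayes with trend, Benjamini-Hochberg, threshold 0.05): time and treatment (3 residual degrees of freedom), and late against early (2). Differences at a single time were described by size, at least 0.5. With 4 pairs an exact sign-flip test of 1 gene could not go below p = 0.125, so it was not used. The code was tested on simulated data.

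Alternatives were the filter, the choice of probe set, 3 scalings, moderation, array weights, terms, left-out arrays and the size threshold. Named genes were all members, in each related list the 2 largest quercetin and the 2 largest 24 h differences, and the 5 nearest profiles to HSPA5 and to the members' mean. Members and lists were chosen with earlier results of these data known.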

Additional observations from a re-analysis of the deposited data

Results flagged for a closer look

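In 3 members the quercetin difference of the representative probe set had opposite signs at the early and late times. It was negative at each of 2 and 4 h and positive at each of 12 and 24 h. The share of all genes with this pattern was not computed. For HSPA5 the early and late means were -0.12 and 0.18, a change of 0.29 on the log2 scale with an adjusted p of 0.978 in limma. For HSP90B1 they were -0.22 and 0.26, a change of 0.48. For EDEM1 they were -0.12 and 0.06, a change of 0.18 with an unadjusted p of 0.550 in limma. None of these changes passed the test. The other HSPA5 probe set, 230031_at, had the reverse signs, with 0.29, 0.14, -0.27 and -0.14 from 2 to 24 h. The other single-symbol probe set of HSP90B1, 216450_x_at, lacked the pattern, with 1.05, 0.001, 0.24 and -0.37.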

How the results depend on the processing

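For quercetin over the 4 times, 1 gene and no member was called with array weights, and 1 gene without the 2 h pair, against 0; between 71 and 1198 genes had an unadjusted p under 0.05 in limma over the alternatives. With the mean of all probe sets of a gene, the members called were 2 for 24 h (4 as reported), 1 for 12 h (2), 0 for 4 h (1) and 2 in the F-test (6), and the genes called were 1525, 65, 0 and 2874. With every probe set on its own, 4597 were called at 24 h, 3 at 4 h with no member, and 7988 in the F-test. At 12 h, 161 genes were called by eBayes without trend and 219 with array weights, and robust eBayes left 1 member. At 4 h no member was called without trend or without the treatment term; genes called were 39 with no filter, 9 after cyclic loess, 22 after quantile normalization, 4 without trend, 141 by robust eBayes and 45 without the treatment term. For late against early (49 genes), 15 were called with no filter, 1 with the mean of probe sets, 141 with every probe set, 30 after median centring, and 0 after cyclic loess, quantile normalization and without trend, where 623, 623 and 477 had an unadjusted p under 0.05 in limma. Leaving out 1 array gave 2 to 5 members and 952 to 3230 genes at 24 h, 1 to 3 members and 52 to 607 genes at 12 h, 0 to 2 members and 2 to 862 genes at 4 h, and 3 to 7 members and 2539 to 5559 genes in the F-test. Members past 0.5 at 2 h numbered 3, or 1 with the mean of probe sets and 0 at a threshold of 1; at 4 h the mean of probe sets gave 1. Members past 0.5 at 24 h in the controls (5) numbered 2 with the mean of probe sets, cyclic loess or quantile normalization and 1 at a threshold of 1; with quercetin (5) they numbered 2 with the mean of probe sets, 3 after cyclic loess or quantile normalization and 2 at a threshold of 1. The quercetin fit pairs arrays by time; without that block 0 genes were called and 71 had an unadjusted p under 0.05 in limma. One array per group limits the precision of every single-time value. The cause of these differences was not tested.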

Other observations

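Besides the members, 37 genes carried an exact ERSE or ERSE-II in a RefSeq promoter window, and 25 of these were tested. At 24 h 4 of the 25 were called higher than at 2 h and 0 lower in limma, where 17.3% and 3.98% of all genes were: ZNF143, a transcription factor (1.5), NAV2 (0.999), ZNF143-AS1 (0.58) and EIF2A (0.55). Their median difference was 0.25, and their median quercetin difference was -0.03 with 0 called.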
